A study of Mus musculus with 40 samples.

Results

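The axon guidance genes of the semaphorin, plexin, neuropilin, ephrin and Eph families were followed in mouse embryonic stem cells of 2 genotypes, with and without retinoic acid (RA). Members were chosen by symbol: every row named as a class 3 to 7 semaphorin, a plexin, Nrp1 or Nrp2, an Eph receptor or an ephrin was taken, whatever its level. This gave 53 genes of the 23228 symbols present in all 8 RNA libraries: 20 semaphorins, 9 plexins, 2 neuropilins, 14 Eph receptors and 8 ephrins. RNA-seq libraries came from 4 groups of 2 libraries each: GLP 3A cells with RA, wild-type cells with RA, untreated GLP 3A cells and untreated wild-type cells. GLP is a histone methyltransferase, encoded by Ehmt1, that acts on lysine 9 of histone H3. The GLP 3A cells are homozygous for a mutant form of it, and the study concerns how GLP propagates that histone mark. Both genotypes are labelled with a mixed C57BL/6 background, and both were moved off feeders into 2i medium for 2 passages. All-trans RA was used at 1 uM, with LIF, the self-renewal factor, removed at the same moment. The labels give neither how many cell lines stand behind each genotype nor how long RA was present. RA and the loss of LIF came together, so their effects cannot be told apart. The labels do not state that replicates were separate cultures, and the p-values then reflect the spread of these samples alone, which may be technical.

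These families carry the short-range and long-range cues that steer growing axons, migrating cells and vessels. Secreted class 3 semaphorins bind neuropilins, which pass the signal through plexins, while most membrane-bound semaphorins bind plexins directly. Ephrins are membrane-anchored ligands of the Eph receptor tyrosine kinases: ephrin-As are held by a lipid anchor and mainly bind EphAs, and ephrin-Bs cross the membrane and mainly bind EphBs. In pluripotent cells and early embryos the same molecules act in cell sorting and tissue boundaries.

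The labels were checked first. Ehmt1, the targeted gene, had 13 and 13.9 RPKM (reads scaled by gene length and library size) in RA-treated GLP 3A cells, 24.4 and 23.5 in RA-treated wild-type cells, 14.1 and 14.3 in untreated GLP 3A cells and 18.4 and 17.6 in untreated wild-type cells. Its values did not overlap between genotypes in either state. This lower level in GLP 3A cells sets the labelled groups apart but does not show the mutation itself, since the files hold no sequence. The 10 pluripotency markers, among them Pou5f1 and Nanog, summed to 141 to 389 RPKM in the RA-treated libraries, against 4572 to 5523 RPKM in the untreated libraries. The files hold RPKM and no read counts, so depth is known only roughly from the spacing of low values: replicate 1 libraries lay between 0.955 and 1.24 times the depth of untreated wild-type replicate 1, and those of replicate 2 could be read at 0.432 to 0.575 or at 0.876 to 1.12. Members at 1 RPKM or more numbered 41 and 42 in RA-treated GLP 3A cells, 43 and 42 in RA-treated wild-type cells, 31 and 31 in untreated GLP 3A cells and 28 and 29 in untreated wild-type cells.

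Of the 53 members, 44 reached 1 RPKM in at least 2 libraries and were tested. The 9 that did not were the Eph receptor genes Epha5, Epha6, Epha8, Epha10 and Ephb1, the plexin genes Plxna4, Plxnb3 and Plxnc1, and Sema3g, and none of them exceeded 0.639 RPKM in any library. Averaged over the 8 libraries, the highest levels were those of Epha2, Plxnb2, Plxna1, Efna4, Efnb2 and Sema4b, and the plot of all members by library shows their levels.

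**Figure D1:**
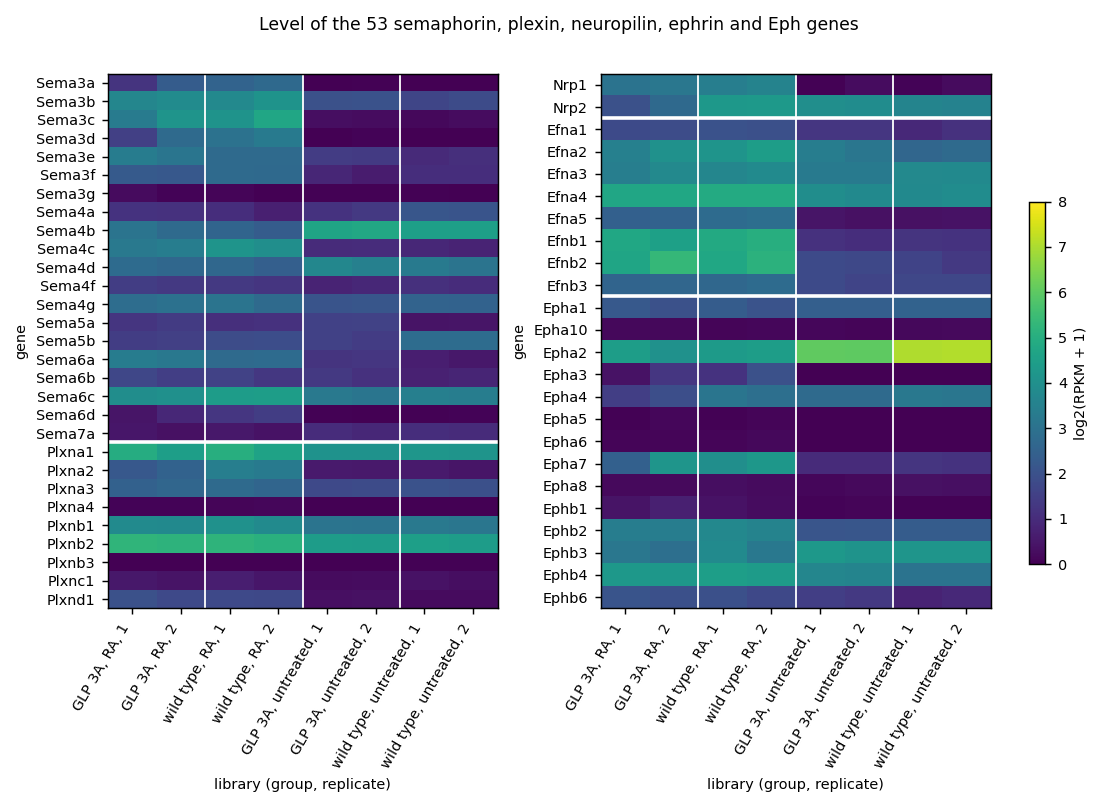
Level of all 53 members in each of the 8 libraries, as log2(RPKM + 1), grouped by family, with the colour scale beside the map. RA-treated libraries stand left of untreated ones and GLP 3A left of wild type within each; Efnb1, Efnb2, Nrp1 and the class 3 semaphorins are brighter with RA, and Epha2 is brightest in untreated wild type.

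Most tested members were higher with RA in both genotypes. Log2 differences are on the scale of log2(RPKM + 1), which understates the change of low genes, and a gene was called at a Benjamini-Hochberg adjusted p under 0.05 by limma across all 13198 genes tested. In GLP 3A cells 36 of 44 members were called with RA, 29 higher and 7 lower, where 70.4% of all genes tested were called, 32.3% higher and 38.1% lower. In wild-type cells 40 of 44 were called, 33 higher and 7 lower, where 68.5% of all genes were called, 33.7% higher and 34.8% lower. The median RA difference of the members was 0.76 in GLP 3A cells and 1.03 in wild-type cells, beside -0.07 and -0.03 over all genes in the same order. Under quantile normalization the split in GLP 3A cells was 25 higher and 11 lower. The filter shapes these counts, because 9 members (Efna5, Epha3, Nrp1, Plxna2, Plxnd1, Sema3a, Sema3c, Sema3d and Sema6d) were under 1 RPKM in every untreated library and could be tested only through their RA-treated ones. Among the other 35 members, 21 were called higher and 7 lower in GLP 3A cells, and 24 higher and 7 lower in wild-type cells. Sema7a, among those 7 lower in each genotype, reached 1 RPKM only in untreated libraries and had to come out lower. These are bulk libraries, in which a shift in the share of a cell type and a shift in RNA per cell cannot be told apart.

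**Figure D2:**
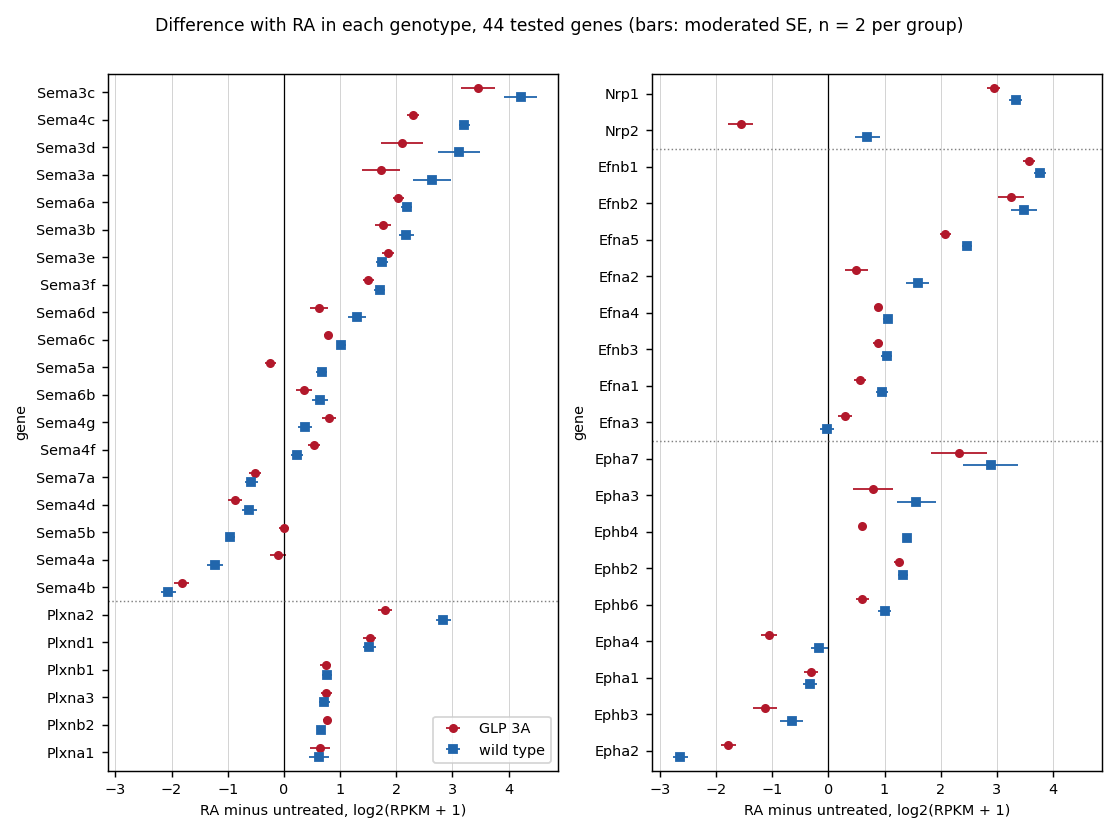
RA minus untreated log2 difference of each tested member, in GLP 3A cells and in wild-type cells, with bars of 1 moderated SE (n = 2 libraries per group). Sema3c, Efnb1, Efnb2 and Nrp1 lie farthest to the right in both genotypes and Epha2 and Sema4b farthest to the left.

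Other cell types were followed by marker lists beside these changes. The 9 markers of primitive or extraembryonic endoderm summed to 74.3 to 404 RPKM in RA-treated libraries, against 7.78 to 10.9 RPKM in untreated libraries. The 7 neural crest markers summed to 28.2 to 73.7 RPKM with RA and 16.3 to 21.2 RPKM without it. Foxd3 made up most of the sum without RA, at 14.1 to 18.9 RPKM, and stood at 0.149 to 0.462 RPKM with RA. Of the 7 tested, 5 were called higher with RA and 1 lower in GLP 3A, and 6 higher and 1 lower in wild type. All but Tfap2a lay under 1 RPKM in every untreated library or in every RA-treated one, so the filter shapes these counts. The 7 trophoblast markers summed to 697 to 1421 RPKM with RA and 28.7 to 47.1 RPKM without it. That trophoblast sum with RA came mostly from the keratin genes Krt8, at 350 to 750 RPKM, and Krt18, at 330 to 658 RPKM. Gata3 and Hand1 were also higher with RA, and Elf5 stayed under 1 RPKM in every library. Eomes was lower, at 0.234 to 0.649 RPKM with RA and 5.26 to 8.21 RPKM without it. The 9 fibroblast markers summed to 103 to 134 RPKM with RA and 22.3 to 26.2 RPKM without it. The 9 neuronal markers summed to 23.4 to 37.1 RPKM with RA and 187 to 218 RPKM without it, and 5 of them, Elavl4, Rbfox3, Syt1, Snap25 and Isl1, stayed under 1 RPKM in every library. That lower sum came mostly from Stmn2, at 8.82 to 16.6 RPKM with RA and 140 to 191 RPKM without it. In each genotype 3 of the 4 tested neuronal markers were called lower with RA (Stmn2, Tubb3 and Elavl3) and 1 higher (Dcx, by 2.00 ± 0.22 in GLP 3A and 1.48 ± 0.22 in wild type). Dcx was under 1 RPKM in every untreated library, so it was tested only through its RA-treated ones and had to come out higher. Elavl3 was under 1 RPKM in every RA-treated library, so it was tested only through its untreated ones and had to come out lower. The 10 neural progenitor markers summed to 51.3 to 90.2 RPKM with RA and 46.8 to 60.4 RPKM without it, with Hes5, Fabp7 and Neurog2 under 1 RPKM throughout. The 8 endothelial markers summed to 7.31 to 18.0 RPKM with RA and 24.6 to 34.8 RPKM without it, and here the sum followed Pecam1, at 0.659 to 3.75 RPKM with RA and 19.3 to 26.6 RPKM without it. In each genotype 4 of the 7 tested endothelial markers were called higher with RA, Cdh5, Kdr and Flt1 among them, and 2 lower (Pecam1 and Tek), with medians of 1.11 in GLP 3A and 0.92 in wild type. Cdh5, Kdr, Flt1 and Tie1 were under 1 RPKM in every untreated library and were tested only through RA-treated ones. The filter thus shapes these counts and medians. None of the markers in these lists was at 0 in every library. Their part in the RA differences of the guidance genes was not tested.

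The class 3 semaphorins are the secreted ligands, and 6 of the 7 were tested. Sema3a, Sema3c and Sema3d were tested only through their RA-treated libraries and had to come out higher with RA. The other 3, Sema3b, Sema3e and Sema3f, were called higher in both genotypes, with a median difference of 1.76 in GLP 3A cells and 1.75 in wild-type cells. Sema3c, a ligand of both neuropilins that is known for its role in the cardiac outflow tract, had 9.0 and 16.5 RPKM in RA-treated GLP 3A cells and 0.218 and 0.199 in untreated GLP 3A cells. Wild-type cells held Sema3c at 16.4 and 25.8 RPKM with RA and at 0.128 and 0.199 without it. Every RA-treated library lay far above every untreated one, and the difference was 3.45 ± 0.30 in GLP 3A cells (SE, n = 2 per group, limma adjusted p = 0.000125) and 4.21 ± 0.30 in wild-type cells (adjusted p = 6.2e-05). Sema3d had 1.86 and 5.86 RPKM in RA-treated GLP 3A cells and 0.0145 and 0.0551 in untreated GLP 3A cells. Wild-type cells held Sema3d at 7.05 and 8.58 RPKM with RA and at 0.00954 and 0.00968 without it. Sema3a, the founding repulsive cue and a ligand of Nrp1, had 1.28 and 4.02 RPKM in RA-treated GLP 3A cells and 0.0100 and 0.0346 in untreated GLP 3A cells. Wild-type cells held Sema3a at 4.82 and 5.70 RPKM with RA and at 0.0194 and 0 without it. Both were close to 0 without RA, and in RA-treated GLP 3A cells replicate 1 was well below replicate 2 for each. The differences of Sema3d were 2.10 ± 0.37 in GLP 3A (adjusted p = 0.00267) and 3.12 ± 0.37 in wild type (adjusted p = 0.000497), and those of Sema3a were 1.73 ± 0.34 (adjusted p = 0.00404) and 2.63 ± 0.34 (adjusted p = 0.000677) in the same order.

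Sema3b had 11.9 and 13.4 RPKM in RA-treated GLP 3A cells and 2.99 and 3.04 in untreated GLP 3A cells. Wild-type cells held Sema3b at 12.6 and 16.1 RPKM with RA and at 2.16 and 2.57 without it. Its RA-treated and untreated values did not overlap, with differences of 1.76 ± 0.14 in GLP 3A (limma adjusted p = 8.2e-05) and 2.18 ± 0.14 in wild type (adjusted p = 3.8e-05). Sema3e, which signals through Plxnd1 without a neuropilin, had 9.25 and 7.64 RPKM in RA-treated GLP 3A cells and 1.66 and 1.56 in untreated GLP 3A cells. Wild-type cells held Sema3e at 5.76 and 5.80 RPKM with RA and at 0.928 and 1.10 without it. It was the only one of the 6 tested class 3 genes whose RA-treated values were all higher in GLP 3A than in wild type, and it differed with RA by 1.85 ± 0.11 in GLP 3A (adjusted p = 3.3e-05) and 1.75 ± 0.11 in wild type (adjusted p = 3.8e-05). Sema3f, mainly a ligand of Nrp2, had 3.77 and 3.64 RPKM in RA-treated GLP 3A cells and 0.799 and 0.527 in untreated GLP 3A cells. Wild-type cells held Sema3f at 5.83 and 5.64 RPKM with RA and at 1.07 and 1.07 without it. Its RA differences were 1.50 ± 0.11 in GLP 3A (adjusted p = 5.8e-05) and 1.70 ± 0.11 in wild type (adjusted p = 3.7e-05). Summed over the class, the 7 class 3 genes reached 37.2 and 51.2 RPKM in RA-treated GLP 3A cells and 5.73 and 5.46 in untreated GLP 3A cells, against 52.4 and 67.7 in RA-treated wild-type cells and 4.34 and 4.95 in untreated wild-type cells. Some of these genes are neighbours: Sema3d, Sema3a and Sema3e lie within chr5:12383165-14256689 and Sema3b and Sema3f within chr9:107500445-107612806 (mm9).

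The receptors of these ligands did not all follow them. Nrp1, the co-receptor of Sema3a and of vascular endothelial growth factor (chromosome 8, 130882972 to 131029375 in mm9), had 7.22 and 7.95 RPKM in RA-treated GLP 3A cells and 0.0369 and 0.201 in untreated GLP 3A cells. Wild-type cells held Nrp1 at 9.67 and 10.8 RPKM with RA and at 0.0621 and 0.166 without it. It was near 0 in all 4 untreated libraries and above 7 RPKM in all 4 RA-treated ones, with differences of 2.94 ± 0.12 in GLP 3A (limma adjusted p = 1.1e-05) and 3.34 ± 0.12 in wild type (adjusted p = 6.8e-06). Nrp1 was tested only through its RA-treated libraries and had to come out higher with RA. Nrp2, the other neuropilin (chromosome 1, 62749890 to 62865266), had 2.96 and 5.60 RPKM in RA-treated GLP 3A cells and 14.4 and 13.8 in untreated GLP 3A cells. Wild-type cells held Nrp2 at 18.2 and 18.6 RPKM with RA and at 11.3 and 10.7 without it. It was already at 10.7 to 14.4 RPKM without RA; with RA both GLP 3A libraries lay below every untreated library, and both wild-type libraries lay above every untreated one. Nrp2 fell with RA in GLP 3A by 1.56 (SE 0.22, adjusted p = 0.000922) and rose in wild type by 0.69 ± 0.22 (adjusted p = 0.0286). The Nrp2 rise in wild type was lost without RA-treated wild-type replicate 1 (Nrp2 adjusted p = 0.087) or 2 (0.0961), without untreated GLP 3A replicate 1 (0.0501), or without untreated wild-type replicate 1 (0.0851) or 2 (0.111). The Nrp1 and Nrp2 rows are listed at the locus of a further symbol each, Mir1903 and 4930487H11Rik, so reads could have been split between them; 4930487H11Rik stayed at or below 0.675 RPKM in all libraries, and Mir1903 was listed at 0 in 5 of the 8 libraries and at up to 347 RPKM in the others.

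The promoters of both neuropilins are shown because the genes went different ways with RA in GLP 3A cells. They are RefSeq sequences of GRCm38.p6, 250 bases before to 50 bases after an annotated start, read 5′ to 3′ on the gene's strand, with each CG dinucleotide in capitals. Nrp2 lies at chr1:62703067-62703366, plus strand, and Nrp1 at chr8:128358823-128359122, plus strand.
Nrp2: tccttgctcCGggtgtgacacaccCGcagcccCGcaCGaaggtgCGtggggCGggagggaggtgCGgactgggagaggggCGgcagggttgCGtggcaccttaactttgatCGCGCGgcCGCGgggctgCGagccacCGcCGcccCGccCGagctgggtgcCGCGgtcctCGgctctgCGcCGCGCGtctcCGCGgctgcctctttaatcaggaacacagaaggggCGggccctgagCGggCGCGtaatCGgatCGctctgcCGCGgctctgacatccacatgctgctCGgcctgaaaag
Nrp1: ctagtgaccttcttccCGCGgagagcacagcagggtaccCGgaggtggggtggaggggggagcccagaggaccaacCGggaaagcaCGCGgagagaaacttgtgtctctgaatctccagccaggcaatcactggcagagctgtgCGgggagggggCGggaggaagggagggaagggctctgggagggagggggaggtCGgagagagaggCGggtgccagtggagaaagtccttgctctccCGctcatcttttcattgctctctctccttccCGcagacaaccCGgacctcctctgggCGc
The Nrp2 window holds 37 CG dinucleotides and the Nrp1 window 14. Promoter windows were found for 47 of the 53 members, 61 windows in all, with a median of 20 CG dinucleotides and 64.0% GC, against 7 and 52.67% over all 32851 windows of the table. The hexamers AGGTCA or GGGTCA, the building block of RA response elements, were found on either strand in 15 of the 61 member windows (24.6%) and in 9029 of all windows (27.5%). Direct repeats of these hexamers spaced by 5, 2 or 1 bases were found in 0 member windows, and in 0.0304%, 0.0396% and 0.128% of all windows; such a match, or its lack in windows of this length, is a description of the letters only.

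Plexins are the signalling receptors, and 6 of the 9 were tested. Plxna1, Plxna3, Plxnb1 and Plxnb2 were called higher with RA in both genotypes, with median differences of 0.75 in GLP 3A cells and 0.69 in wild-type cells. Plxna2 and Plxnd1 were tested only through their RA-treated libraries and had to come out higher. Plxna2, a receptor of Sema6a and, with neuropilins, of class 3 semaphorins (chromosome 1, 196446022 to 196643062), had 3.57 and 4.71 RPKM in RA-treated GLP 3A cells and 0.479 and 0.452 in untreated GLP 3A cells. Wild-type cells held Plxna2 at 9.73 and 8.73 RPKM with RA and at 0.492 and 0.372 without it. All RA-treated values lay above all untreated ones, and the GLP 3A values with RA lay between untreated and wild-type RA values; the RA differences were 1.80 ± 0.13 in GLP 3A (limma adjusted p = 6.9e-05) and 2.84 ± 0.13 in wild type (adjusted p = 1.4e-05). Plxnd1, the receptor of Sema3e, had 2.98 and 2.36 RPKM in RA-treated GLP 3A cells and 0.250 and 0.293 in untreated GLP 3A cells. Wild-type cells held Plxnd1 at 2.42 and 2.31 RPKM with RA and at 0.168 and 0.183 without it. Its RA-treated and untreated values did not overlap, with RA differences of 1.53 ± 0.11 in GLP 3A and 1.52 ± 0.11 in wild type (adjusted p = 7.3e-05 and 7.5e-05). Plxnb2, the plexin with the highest mean level and a receptor of Sema4c and Sema4d, had 36.3 and 34.7 RPKM in RA-treated GLP 3A cells and 20.5 and 20.2 in untreated GLP 3A cells. Wild-type cells held Plxnb2 at 35.6 and 32.7 RPKM with RA and at 21.9 and 20.6 without it. The groups with and without RA did not overlap (differences 0.77 ± 0.07 in GLP 3A, adjusted p = 0.000161, and 0.66 ± 0.07 in wild type, adjusted p = 0.000321).

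Plxna1, a partner of neuropilins and a receptor of Sema6d, had 30.1 and 21.6 RPKM in RA-treated GLP 3A cells and 15.9 and 16.0 in untreated GLP 3A cells. Wild-type cells held Plxna1 at 31.1 and 23.2 RPKM with RA and at 17.4 and 16.7 without it. RA-treated values exceeded all untreated ones but replicate 1 was higher than replicate 2 in both RA groups, and the differences were 0.64 ± 0.18 in GLP 3A (limma adjusted p = 0.0190) and 0.63 ± 0.18 in wild type (adjusted p = 0.0219). For Plxna1 in GLP 3A cells, the adjusted p missed the threshold without RA-treated GLP 3A replicate 1 (0.0751) or untreated GLP 3A replicate 1 (0.0737) or 2 (0.0709), and that of Plxna1 in wild type without RA-treated wild-type replicate 1 (0.109) or untreated wild-type replicate 1 (0.0726) or 2 (0.0916). The other 2 tested plexins, Plxna3 and Plxnb1, a receptor of Sema4d, rose by 0.76 and 0.74 in GLP 3A and by 0.72 and 0.77 in wild type. The plexin sum stood at 91.1 and 82.0 RPKM in RA-treated GLP 3A cells and 47.3 and 47.0 in untreated GLP 3A cells, against 101 and 85.9 in RA-treated wild-type cells and 51.7 and 48.7 in untreated wild-type cells.

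Most ephrins rose with RA, and all 3 transmembrane ephrin-Bs did so in both genotypes. Apart from Efna5, which was tested only through its RA-treated libraries, 5 of 7 ephrins were called higher in GLP 3A cells and 6 of 7 in wild-type cells, and 0 lower in either. Efnb1, the X-linked ephrin-B1 (chromosome X, 96331468 to 96344330), had 26.3 and 22.4 RPKM in RA-treated GLP 3A cells and 1.20 and 1.05 in untreated GLP 3A cells. Wild-type cells held Efnb1 at 28.2 and 31.4 RPKM with RA and at 1.29 and 1.24 without it. Efnb2, known as an arterial marker and ligand of Ephb4 (chromosome 8, 8617438 to 8660773), had 24.9 and 39.1 RPKM in RA-treated GLP 3A cells and 2.51 and 2.30 in untreated GLP 3A cells. Wild-type cells held Efnb2 at 26.1 and 34.5 RPKM with RA and at 2.04 and 1.51 without it. For both genes each RA-treated library was many times above each untreated one. The differences of Efnb1 were 3.57 ± 0.10 in GLP 3A (limma adjusted p = 5.0e-06) and 3.76 ± 0.10 in wild type (adjusted p = 3.7e-06), and those of Efnb2 were 3.24 ± 0.23 (adjusted p = 6.4e-05) and 3.49 ± 0.23 (adjusted p = 4.8e-05). Efnb3 rose less, by 0.89 ± 0.10 in GLP 3A (adjusted p = 0.000292) and 1.04 ± 0.10 in wild type (adjusted p = 0.000164).

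Among the lipid-anchored ephrin-As, Efna5, a repulsive cue known from the visual map, had 4.44 and 4.77 RPKM in RA-treated GLP 3A cells and 0.366 and 0.288 in untreated GLP 3A cells. Wild-type cells held Efna5 at 5.90 and 6.48 RPKM with RA and at 0.273 and 0.323 without it. Every RA-treated library lay above every untreated one, with differences of 2.08 ± 0.10 in GLP 3A (limma adjusted p = 1.5e-05) and 2.47 ± 0.10 in wild type (adjusted p = 8.7e-06). Efna4, the most abundant ephrin without RA, had 25.5 and 26.0 RPKM in RA-treated GLP 3A cells and 14.3 and 12.8 in untreated GLP 3A cells. Wild-type cells held Efna4 at 28.7 and 28.4 RPKM with RA and at 12.8 and 13.8 without it. Its RA-treated values lay above all untreated ones in both genotypes, with differences of 0.88 ± 0.08 (adjusted p = 0.000129) in GLP 3A and 1.05 ± 0.08 (adjusted p = 6.9e-05) in wild type. Efna1, a ligand of Epha2, had 2.50 and 2.64 RPKM in RA-treated GLP 3A cells and 1.42 and 1.40 in untreated GLP 3A cells. Wild-type cells held Efna1 at 3.07 and 2.89 RPKM with RA and at 0.909 and 1.20 without it. It differed with RA by 0.57 ± 0.10 in GLP 3A (adjusted p = 0.00291) and 0.96 ± 0.10 in wild type (adjusted p = 0.000314). Efna2 had 10.3 and 15.4 RPKM in RA-treated GLP 3A cells and 9.49 and 7.79 in untreated GLP 3A cells. Wild-type cells held Efna2 at 16.6 and 21.0 RPKM with RA and at 5.24 and 5.83 without it. It was called in wild type (1.59 ± 0.21, adjusted p = 0.000672) but not in GLP 3A (0.50 ± 0.21, adjusted p = 0.0674); the difference between these responses was not called (adjusted p = 0.109). Efna3 was called in neither genotype, at 0.30 ± 0.13 (adjusted p = 0.0718) in GLP 3A and -0.029 ± 0.13 (adjusted p = 0.854) in wild type. Efna1, Efna3 and Efna4 lie with Sema4a within chr3:88239883-89141950 (mm9).

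The Eph receptors moved in both directions, so that their makeup differed with RA. Apart from Epha3, which was tested only through its RA-treated libraries, 4 of the 8 tested were called higher and 3 lower in GLP 3A cells, and 4 higher and 2 lower in wild-type cells. Epha2, the receptor that dominated untreated cells (chromosome 4, 140857135 to 140885299), had 20.9 and 15.4 RPKM in RA-treated GLP 3A cells and 64.9 and 63.1 in untreated GLP 3A cells. Wild-type cells held Epha2 at 19.7 and 21.0 RPKM with RA and at 131 and 133 without it. The 4 RA-treated values overlapped between genotypes and lay far below the untreated ones, among which both GLP 3A libraries lay well below both wild-type ones. Epha2 fell with RA by 1.78 (SE 0.13, limma adjusted p = 7.6e-05) in GLP 3A and by 2.64 (SE 0.13, adjusted p = 1.9e-05) in wild type. Epha2 made up 29.5% and 19.8% of the summed Eph RPKM in RA-treated GLP 3A cells and 58.2% and 58.9% in untreated GLP 3A cells, against 20.1% and 22.4% in RA-treated wild-type cells and 74.8% and 75.4% in untreated wild-type cells. The whole Eph sum was 71.1 and 77.4 RPKM in RA-treated GLP 3A cells and 111 and 107 in untreated GLP 3A cells, against 98.1 and 93.7 in RA-treated wild-type cells and 175 and 176 in untreated wild-type cells.

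**Figure D3:**
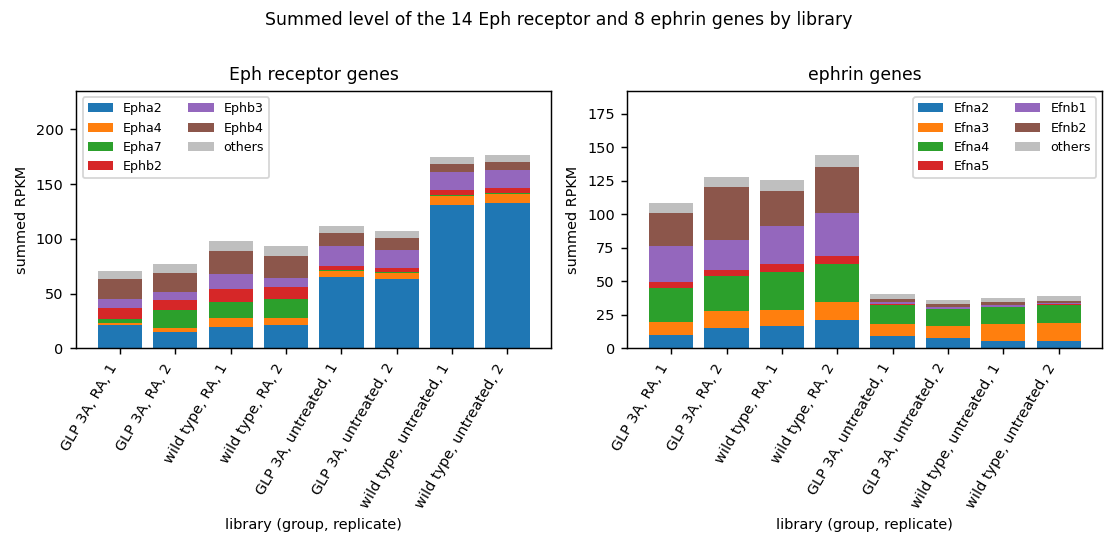
Summed RPKM of Eph receptors and of ephrins in each library, stacked by gene, with RA-treated libraries left of untreated ones and GLP 3A left of wild type. The Epha2 share of the Eph sum is 74.8% and 75.4% in untreated wild type, and the ephrin sum is 108 and 128 RPKM in RA-treated GLP 3A cells and 126 and 144 in RA-treated wild-type cells.

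Epha7, which binds ephrin-As, had 4.47 and 16.9 RPKM in RA-treated GLP 3A cells and 0.986 and 0.966 in untreated GLP 3A cells. Wild-type cells held Epha7 at 14.6 and 17.8 RPKM with RA and at 1.38 and 1.25 without it. RA-treated values lay above all untreated ones, although replicate 1 of RA-treated GLP 3A cells was well below the other 3, and the differences were 2.32 ± 0.50 in GLP 3A (limma adjusted p = 0.00579) and 2.89 ± 0.50 in wild type (adjusted p = 0.00234). Epha4, unusual in binding both ephrin classes (chromosome 1, 77363759 to 77511663), had 1.82 and 2.79 RPKM in RA-treated GLP 3A cells and 5.74 and 5.85 in untreated GLP 3A cells. Wild-type cells held Epha4 at 7.61 and 6.59 RPKM with RA and at 8.16 and 7.88 without it. With RA the GLP 3A libraries held the lowest values of the 8, while the wild-type libraries stood near untreated levels. Epha4 fell with RA in GLP 3A by 1.06 (SE 0.15, adjusted p = 0.000946) and was not called in wild type (-0.16 ± 0.15, adjusted p = 0.380). Epha3 was called in wild type (1.57 ± 0.35, adjusted p = 0.00746) and not in GLP 3A (0.79 ± 0.35, adjusted p = 0.0843), where its RA-treated libraries read 0.302 and 1.39 RPKM. Epha1 was called in neither.

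Ephb4, the venous partner of Efnb2 (chromosome 5, 137791336 to 137815750), had 18.4 and 17.9 RPKM in RA-treated GLP 3A cells and 11.8 and 11.3 in untreated GLP 3A cells. Wild-type cells held Ephb4 at 21.6 and 20.1 RPKM with RA and at 7.25 and 7.24 without it. The 4 groups did not overlap, and the lowest values were those of untreated wild type. It rose with RA by 0.61 ± 0.07 in GLP 3A (limma adjusted p = 0.000372) and 1.41 ± 0.07 in wild type (adjusted p = 1.7e-05). Ephb2, a receptor of ephrin-Bs, rose by 1.25 ± 0.08 (adjusted p = 4.8e-05) in GLP 3A and 1.33 ± 0.08 (adjusted p = 3.9e-05) in wild type. Ephb3 ran the other way, with 8.05 and 6.65 RPKM in RA-treated GLP 3A cells and 18.1 and 16.3 in untreated GLP 3A cells. Wild-type cells held Ephb3 at 13.3 and 8.14 RPKM with RA and at 17.2 and 16.8 without it. It fell by 1.13 (SE 0.21, adjusted p = 0.00311) in GLP 3A and by 0.66 (SE 0.21, adjusted p = 0.0294) in wild type, and the Ephb3 call in wild type was lost without RA-treated wild-type replicate 2 (Ephb3 adjusted p = 0.0758) or untreated wild-type replicate 1 (0.107) or 2 (0.0946). Ephb6, a member whose kinase domain is inactive, had 3.18 and 2.91 RPKM in RA-treated GLP 3A cells and 1.79 and 1.53 in untreated GLP 3A cells. Wild-type cells held Ephb6 at 2.90 and 2.32 RPKM with RA and at 0.726 and 0.879 without it. It rose by 0.61 ± 0.12 (adjusted p = 0.00434) in GLP 3A and 1.00 ± 0.12 (adjusted p = 0.000513) in wild type.

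Membrane-bound semaphorins went both ways with RA. Sema4c, a ligand of Plxnb2 (chromosome 1, 36605486 to 36615226), had 8.38 and 9.44 RPKM in RA-treated GLP 3A cells and 0.994 and 1.02 in untreated GLP 3A cells. Wild-type cells held Sema4c at 16.6 and 14.5 RPKM with RA and at 0.837 and 0.725 without it. The 4 RA-treated libraries lay above all untreated ones and the 2 GLP 3A ones below the 2 wild-type ones; the RA differences were 2.30 ± 0.10 in GLP 3A (limma adjusted p = 1.4e-05) and 3.21 ± 0.10 in wild type (adjusted p = 5.3e-06). Sema4b had 7.41 and 5.75 RPKM in RA-treated GLP 3A cells and 24.5 and 26.7 in untreated GLP 3A cells. Wild-type cells held Sema4b at 4.91 and 4.06 RPKM with RA and at 21.8 and 21.7 without it. It was the leading semaphorin of untreated cells, at 37.9% and 41.6% of the summed semaphorin RPKM in untreated GLP 3A and 34.3% and 35.2% in untreated wild type, and it fell with RA by 1.82 (SE 0.13, adjusted p = 6.3e-05) in GLP 3A and by 2.06 (SE 0.13, adjusted p = 4.0e-05) in wild type. Sema4d, the ligand of Plxnb1, and Sema7a, a lipid-anchored semaphorin, fell in both genotypes too, by 0.87 and 0.52 in GLP 3A and by 0.62 and 0.58 in wild type. Sema7a reached 1 RPKM only in untreated libraries, so it was tested through these alone and had to come out lower with RA. Sema6a, a ligand of Plxna2, had 9.26 and 8.14 RPKM in RA-treated GLP 3A cells and 1.31 and 1.41 in untreated GLP 3A cells. Wild-type cells held Sema6a at 5.84 and 5.90 RPKM with RA and at 0.599 and 0.428 without it. Its RA-treated values lay above all untreated ones, with RA differences of 2.04 ± 0.10 (adjusted p = 1.9e-05) in GLP 3A and 2.18 ± 0.10 (adjusted p = 1.5e-05) in wild type.

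Sema6c and Sema6d also rose. Sema6c had 14.1 and 15.2 RPKM in RA-treated GLP 3A cells and 8.44 and 7.71 in untreated GLP 3A cells. Wild-type cells held Sema6c at 20.4 and 20.7 RPKM with RA and at 9.88 and 9.39 without it. It had RA differences of 0.79 ± 0.08 in GLP 3A and 1.02 ± 0.08 in wild type (limma adjusted p = 0.000194 and 7.4e-05). Sema6d had 0.370 and 0.838 RPKM in RA-treated GLP 3A cells and 0.0303 and 0.0187 in untreated GLP 3A cells. Wild-type cells held Sema6d at 1.42 and 1.72 RPKM with RA and at 0.0288 and 0.0487 without it. It had RA differences of 0.63 ± 0.16 in GLP 3A (adjusted p = 0.0122) and 1.31 ± 0.16 in wild type (adjusted p = 0.000558). Because Sema6d reached 1 RPKM only in RA-treated wild-type libraries, the filter fixed the direction of its rise in wild type. The GLP 3A call of Sema6d ended without untreated GLP 3A replicate 1 (Sema6d adjusted p = 0.0502) or 2 (0.0562). Smaller rises were those of Sema4g (0.81 in GLP 3A and 0.38 in wild type), Sema4f, called in GLP 3A (0.53), and Sema6b, called in wild type (0.65). In wild type Sema4g was no longer called without RA-treated wild-type replicate 1 (Sema4g adjusted p = 0.146) or any untreated library (0.0561 to 0.129). Sema4a, Sema5a and Sema5b had RA differences that were called in wild type and not in GLP 3A, and they are set out with the genotype comparison of untreated cells.

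Untreated GLP 3A cells differed from untreated wild-type cells in a small number of guidance genes. Of 44 members 7 were called, 4 higher and 3 lower, where 11.7% of all genes were called, 7.52% higher and 4.15% lower, and the members' median difference was 0.02 beside 0.04 over all genes. The split was 3 higher and 4 lower under median-of-ratios scaling, 3 and 3 under quantile normalization, and 3 and 5 under chromosome-median centring. Sema5a and Sema5b, class 5 semaphorins with thrombospondin repeats that act as attractive or repulsive cues, moved in opposite directions. Sema5a (chromosome 15, 32174567 to 32626096) had 1.35 and 1.63 RPKM in RA-treated GLP 3A cells and 1.90 and 1.97 in untreated GLP 3A cells. Wild-type cells held Sema5a at 1.13 and 1.22 RPKM with RA and at 0.351 and 0.380 without it. Untreated wild type held its 2 lowest values of the 8 libraries, and the untreated difference between genotypes was 1.10 ± 0.10 (SE, n = 2 per group, limma adjusted p = 0.00293). Sema5b (chromosome 16, 35541447 to 35664344) had 1.73 and 1.87 RPKM in RA-treated GLP 3A cells and 1.92 and 1.69 in untreated GLP 3A cells. Wild-type cells held Sema5b at 2.65 and 2.68 RPKM with RA and at 6.09 and 6.07 without it. Untreated wild type held the 2 highest values, more than 3 times those of untreated GLP 3A cells, and the gene was lower in GLP 3A by 1.34 (SE 0.09, adjusted p = 0.000993). These 2 calls were kept when any 1 library was left out, while the other 5 ended when any 1 of the 4 untreated libraries was.

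The promoters of Sema5a and Sema5b are printed because these genes had the largest untreated differences between genotypes among the members, one in each direction. Each is a RefSeq GRCm38.p6 window of the same kind, with CG dinucleotides in capitals, at chr15:32244563-32244862 (plus strand) for Sema5a and at chr16:35541112-35541411 (plus strand) for Sema5b.
Sema5a: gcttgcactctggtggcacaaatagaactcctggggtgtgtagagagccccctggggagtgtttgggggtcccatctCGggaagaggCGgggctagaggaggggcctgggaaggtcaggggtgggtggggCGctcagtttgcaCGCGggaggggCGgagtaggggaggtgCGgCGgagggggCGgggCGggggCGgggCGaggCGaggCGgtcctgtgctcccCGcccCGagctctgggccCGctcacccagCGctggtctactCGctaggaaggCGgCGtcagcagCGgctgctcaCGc
Sema5b: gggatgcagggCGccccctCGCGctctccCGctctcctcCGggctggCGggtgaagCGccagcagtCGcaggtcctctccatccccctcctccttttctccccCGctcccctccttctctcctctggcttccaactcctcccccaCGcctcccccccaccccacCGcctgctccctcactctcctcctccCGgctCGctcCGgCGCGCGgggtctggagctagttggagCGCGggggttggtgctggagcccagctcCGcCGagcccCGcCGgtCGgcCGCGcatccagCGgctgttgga
The Sema5a window holds 23 CG dinucleotides and the Sema5b window 27, both above the median of 20 for member windows.

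The other 5 members called in untreated cells were Epha2, Ephb4, Ephb6, Sema4a and Sema6a. Epha2 was lower in untreated GLP 3A cells by 1.03 (SE 0.13, limma adjusted p = 0.00834), and without 1 untreated library its adjusted p was 0.0647 to 0.0773. Ephb4 was higher by 0.61 ± 0.07 (adjusted p = 0.00535), with 0.0509 to 0.0622 without 1 untreated library. Ephb6 was higher by 0.56 ± 0.12 (adjusted p = 0.0356), with 0.126 to 0.203 without 1 untreated library. Sema4a, a ligand of plexin-Bs and Plxnd1 (chromosome 3, 88239883 to 88265104), had 1.27 and 1.19 RPKM in RA-treated GLP 3A cells and 1.27 and 1.53 in untreated GLP 3A cells. Wild-type cells held Sema4a at 1.06 and 0.636 RPKM with RA and at 3.38 and 3.21 without it. Untreated wild type stood above every other library, Sema4a was lower in untreated GLP 3A by 0.84 (SE 0.14, adjusted p = 0.0145), and without 1 untreated library its adjusted p was 0.0833 to 0.112. Sema6a (chromosome 18, 47404907 to 47528522) was higher in untreated GLP 3A by 0.64 ± 0.10 (adjusted p = 0.0140), with 0.0702 to 0.108 without 1 untreated library. Neither neuropilin, 0 of 6 tested plexins and 0 of 8 ephrins were called; at an unadjusted p under 0.05 limma gave 16 of the 44 members, where 28.3% of all genes tested were under that value.

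**Figure D4:**
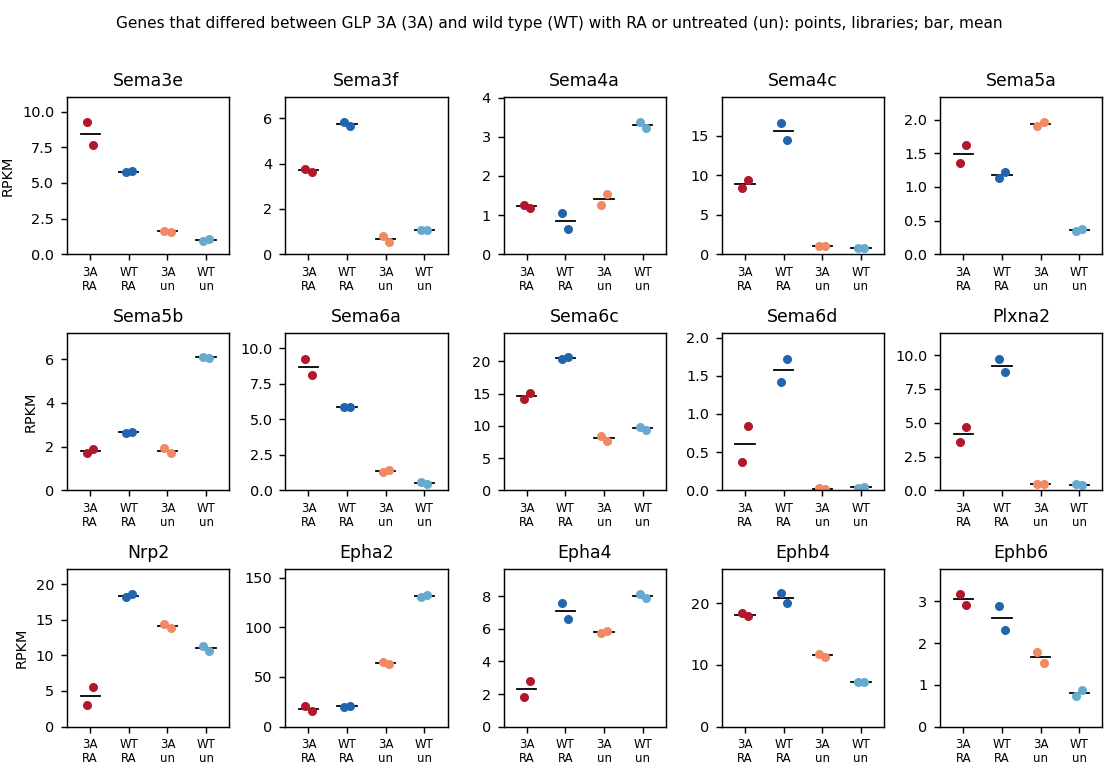
RPKM of the members called between genotypes or in the difference of RA responses, 1 point per library, in the order GLP 3A with RA, wild type with RA, untreated GLP 3A and untreated wild type. Sema5b and Sema4a are highest in untreated wild type, Sema5a is lowest there, and Nrp2 and Epha4 are lowest in RA-treated GLP 3A cells.

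With RA, GLP 3A cells had mostly lower levels of the guidance genes that differed from wild type. Of 44 members 10 were called, 2 higher and 8 lower, where 10.6% of all genes were called, 5.30% higher and 5.31% lower; the members' median difference was -0.16 beside -0.01 over all genes. The split was 1 higher and 7 lower under chromosome-median centring and 1 and 8 under median-of-ratios scaling. Among the 8 lower calls of the main fit, Sema6d passed the filter only through RA-treated wild-type libraries. Nrp2 showed the largest called difference: its RA-treated values, 2.96 and 5.60 RPKM in GLP 3A against 18.2 and 18.6 in wild type, gave -1.92 ± 0.22 (SE, n = 2 per group, limma adjusted p = 0.00925). Epha4 followed, at 1.82 and 2.79 RPKM in RA-treated GLP 3A against 7.61 and 6.59 in RA-treated wild type (-1.31 ± 0.15, adjusted p = 0.00925). Plxna2 differed by -1.0 ± 0.13 (adjusted p = 0.0137) and Sema4c by -0.74 ± 0.10 (adjusted p = 0.0155). Nrp2 and Epha4 kept their call when any 1 library was left out. Plxna2 lost it without RA-treated wild-type replicate 1 (0.0611), and Sema4c without that library (0.0644) or untreated GLP 3A replicate 1 (0.0505). When the fit held only the 4 RA-treated libraries, so that the spread came from them alone, 0 of 44 members were called by limma, 12 had an unadjusted p under 0.05 (17% of all genes did), and the adjusted p of Nrp2 was 0.162 and of Epha4 0.167.

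The other 6 members called in RA-treated cells were semaphorins. Sema3e (0.47 ± 0.11, limma adjusted p = 0.0460) and Sema6a (0.50 ± 0.10, adjusted p = 0.0354) were higher in GLP 3A. Sema3f (-0.52 ± 0.11, adjusted p = 0.0347), Sema5b (-0.39 ± 0.09, adjusted p = 0.0428), Sema6c (-0.46 ± 0.08, adjusted p = 0.0218) and Sema6d (-0.69 ± 0.16, adjusted p = 0.0464) were lower in GLP 3A. Sema6d reached 1 RPKM only in RA-treated wild-type libraries, so it was tested through the group where it was high and had to come out lower. The calls of these 6 genes were close to the threshold. Each ended without either wild-type RA replicate or any 1 untreated library, and without RA-treated GLP 3A replicate 1; Sema3f also ended without RA-treated GLP 3A replicate 2 (0.0521). Without 1 library the highest adjusted p was 0.135 for Sema3e, 0.115 for Sema3f, 0.127 for Sema5b, 0.114 for Sema6a, 0.0804 for Sema6c and 0.158 for Sema6d. Ephrins gave 0 calls of 8 between genotypes with RA. In the same cells the 7 neural crest markers summed to 28.2 and 40.4 RPKM in GLP 3A against 53.4 and 73.7 in wild type, those of extraembryonic endoderm to 149.6 and 74.3 against 404 and 109, and those of pluripotency to 389 and 181 against 256 and 141. Neural progenitor markers summed to 51.3 and 70.3 RPKM in GLP 3A against 71.7 and 90.2 in wild type, and 2 of the 7 tested were called lower, Sox1 by 1.82 (SE 0.39, adjusted p = 0.0389) and Zic1 by 1.65 (SE 0.20, adjusted p = 0.0108). Neural crest and extraembryonic endoderm markers also held 2 called lower each, of 7 and 9 tested. Trophoblast markers summed to 1421 and 848 RPKM in GLP 3A against 749.9 and 697 in wild type, with 1 of 5 tested called lower. Most of that sum was Krt8, at 750 and 433 RPKM in GLP 3A against 381 and 350 in wild type, and Krt18. Krt18 stood at 658 and 402 RPKM in GLP 3A against 349 and 330 in wild type. The sums overlapped between genotypes for extraembryonic endoderm and pluripotency markers. They also overlapped for neuronal, fibroblast and endothelial markers, of which 0 of 4, 1 of 7 and 1 of 7 tested were called, both higher. The part of these markers in the genotype differences was not tested.

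Chromosome 1 held the 4 largest called decreases. Its 4 tested members, Epha4, Nrp2, Plxna2 and Sema4c, were all lower in RA-treated GLP 3A cells, and the 710 tested genes of that chromosome had a median difference between genotypes of -0.31 with RA and -0.24 without it. Each of the 4 was lower by more than that chromosome-wide shift. After each library was centred on the median of each chromosome, the differences with RA were -1.64 for Nrp2 (limma adjusted p = 0.0144), -1.02 for Epha4 (0.0191), -0.71 for Plxna2 (0.0353) and -0.45 for Sema4c (0.0698), so Sema4c was no longer called. Without RA 0 of these 4 genes were called, with Nrp2 at 0.33 ± 0.22, Plxna2 at 0.035 ± 0.13, Sema4c at 0.17 ± 0.10 and Epha4 at -0.41 ± 0.15 as deposited. Chromosome 11, which holds Efnb3, had a median difference of 0.24 in both states over 1114 genes. What underlies these chromosome medians was not tested.

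**Figure D5:**
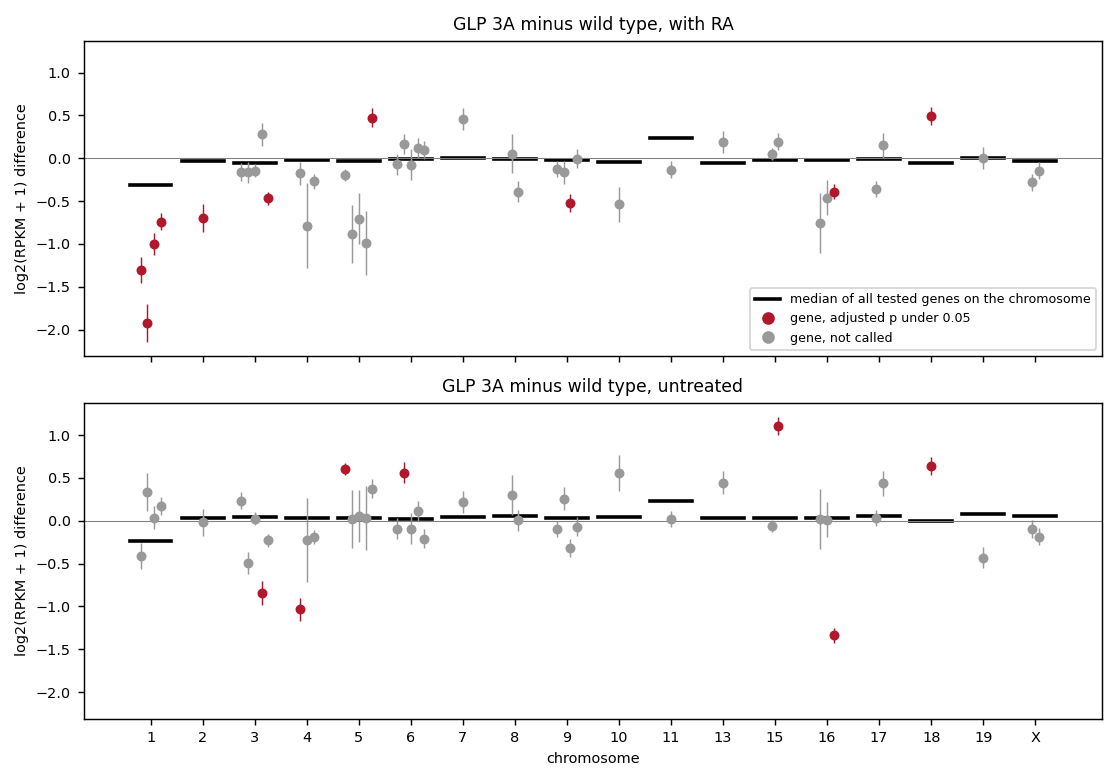
GLP 3A minus wild-type log2 difference of each tested member by chromosome, with RA and without it, beside the median of all tested genes of that chromosome (black lines). Bars are 1 moderated SE and red marks called members. The 4 members on chromosome 1 lie below the chromosome median of -0.31 with RA.

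The RA response itself differed between the genotypes for 5 members. The difference of RA responses (GLP 3A response minus wild-type response) was called for 1 member above 0 and 4 below it, where 1.80% of all genes were called, 0.561% above and 1.24% below; the members' median was -0.24 beside -0.06 over all genes. Nrp2 had the largest, -2.26 ± 0.31 (SE, n = 2 per group, limma adjusted p = 0.0321), having fallen with RA in GLP 3A and risen in wild type. Ephb4 (-0.80 ± 0.10, adjusted p = 0.0256) and Sema4c (-0.91 ± 0.15, adjusted p = 0.0451) rose in both genotypes but by less in GLP 3A. Sema5a (-0.91 ± 0.14, adjusted p = 0.0407) rose with RA in wild type by 0.67 ± 0.10 (adjusted p = 0.00130) and in GLP 3A had -0.24 ± 0.10 (adjusted p = 0.0714). Sema5b (0.95 ± 0.12, adjusted p = 0.0295) fell with RA in wild type by 0.95 (SE 0.09, adjusted p = 0.000163) and in GLP 3A had -0.0024 ± 0.09 (adjusted p = 0.984). Under quantile normalization 0 were called above 0 and 2 below it.

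For Ephb4, Sema5a and Sema5b the genotypes stood closer together with RA than without it. The GLP 3A minus wild-type difference of Ephb4 was -0.19 with RA and 0.61 without it, that of Sema5a was 0.19 with RA and 1.10 without it, and that of Sema5b was -0.39 with RA and -1.34 without it. Sema4a, Epha2 and Plxna2 missed the threshold, at 1.12 ± 0.19 (limma adjusted p = 0.0514), 0.86 ± 0.19 (adjusted p = 0.0797) and -1.04 ± 0.19 (adjusted p = 0.0540), as did Epha4 at -0.90 ± 0.21 (adjusted p = 0.0875). Sema4a fell with RA in wild type by 1.23 (SE 0.14, adjusted p = 0.000360) and had -0.10 ± 0.14 in GLP 3A (adjusted p = 0.525). Each of the 5 called differences of response ended without either wild-type RA replicate or any 1 untreated library, when 0 members were called (10 to 16 at an unadjusted p under 0.05, where 13% to 21.1% of all genes were). The highest adjusted p without 1 library was 0.164 for Ephb4, 0.176 for Nrp2, 0.205 for Sema4c, 0.20 for Sema5a and 0.172 for Sema5b, and Sema4c was also lost without RA-treated GLP 3A replicate 1 (0.0594).

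Other guidance genes were counted from lists of the neighbouring pathways. With RA, 70.4% of all genes tested were called in GLP 3A cells (32.3% higher and 38.1% lower) and 68.5% in wild-type cells (33.7% higher and 34.8% lower), so calls were common in any list, and nothing particular to these lists is read from their counts. Of 9 tested netrin pathway genes, 6 were called higher and 1 lower with RA in GLP 3A cells, and 7 higher and 1 lower in wild-type cells. Ntn1, the attractive and repulsive cue netrin-1, was the one that fell, by 1.62 (SE 0.11) in GLP 3A and by 1.71 (SE 0.11) in wild type. Unc5c, a repulsive netrin receptor, rose by 0.52 ± 0.13 in GLP 3A and 1.41 ± 0.13 in wild type, and was lower in RA-treated GLP 3A than in RA-treated wild type (-0.88 ± 0.13, limma adjusted p = 0.0172). Unc5c reached 1 RPKM only in RA-treated wild-type libraries. The filter thus fixed the direction of its rise in wild type and of its lower level in GLP 3A. Of 9 tested slit and roundabout genes, 5 were called higher and 2 lower with RA in GLP 3A and 7 higher and 1 lower in wild type, and 3 were called lower in RA-treated GLP 3A than in RA-treated wild type, where 5.31% of all genes were: Robo2, a slit receptor (-0.87 ± 0.13, adjusted p = 0.0175), Slit3, a slit ligand (-0.54 ± 0.13, adjusted p = 0.0479), and Srgap2, a GTPase-activating protein of the pathway (-0.39 ± 0.07, adjusted p = 0.0292). Like Unc5c, Robo2 reached 1 RPKM only in RA-treated wild-type libraries and had to come out lower in RA-treated GLP 3A. Both tested repulsive guidance molecule genes rose with RA in both genotypes, Rgma by 2.38 ± 0.18 in GLP 3A and 2.97 ± 0.18 in wild type. Of 5 tested adhesion co-receptors, 4 were called higher and 0 lower with RA in GLP 3A, and 2 higher and 1 lower in wild type.

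Of 47 tested intracellular effectors, 26 were called higher and 8 lower with RA in GLP 3A cells, and 32 higher and 6 lower in wild-type cells, with medians of 0.43 and 0.62 in the same order beside -0.07 and -0.03 over all genes; the shares called among all genes are those given for the other lists. Farp1, a Rac activator that works with plexin-As, rose by 3.33 ± 0.10 in GLP 3A and 3.44 ± 0.10 in wild type, and Chn2, a Rac GTPase-activating protein, by 2.47 ± 0.12 and 2.48 ± 0.12. Chn2 was under 1 RPKM in every untreated library, so it was tested only through its RA-treated ones and had to come out higher. Enah, an actin regulator, was lower in untreated GLP 3A than in untreated wild type (-0.70 ± 0.09, limma adjusted p = 0.00804), and so was Ablim1, an actin-binding protein (-0.67 ± 0.16, adjusted p = 0.0464). Adam10, a protease that sheds ephrins (0.60 ± 0.09, adjusted p = 0.0112), and Chn1, a Rac GTPase-activating protein of Epha4 signalling (0.77 ± 0.16, adjusted p = 0.0344), were higher. In RA-treated cells the 2 effectors called between genotypes were lower in GLP 3A: Ablim1 (-0.79 ± 0.16, adjusted p = 0.0333) and the adaptor gene Nck2 (-0.66 ± 0.12, adjusted p = 0.0298). Between RA-treated genotypes 2 of 47 effectors were thus called, where 10.6% of all genes were. Between untreated genotypes 2 of 47 were called higher and 2 lower, where 11.7% of all genes were called.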

How the data were processed

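RNA libraries of mouse embryonic stem cells were compared in 4 groups of 2. Per the file headers, the authors deposited RPKM values with a symbol and a locus for each gene; Bowtie 0.12.7, SAMtools, TopHat, Cufflinks and mm9 are named in the submitters' processing notes, and the sources used here state neither the strand protocol nor how overlapping genes were counted. Of the 40 samples, 32 of chromatin and input DNA were not analysed here. Each file lists 23234 symbols, and the 12 symbols absent from at least 1 file were left out. Symbols that share a locus with another symbol, 6 of the members, have uncertain values.

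RPKM values plus 1 were put on a log2 scale and fitted by limma 3.58.1 (R 4.3.3) with a mean for each of the 4 groups, using all 8 libraries and no replicate block. Variances were moderated by empirical Bayes with a trend on intensity. The fit covered the 13198 genes that reached 1 RPKM in 2 or more libraries, with two-sided tests, Benjamini-Hochberg adjustment over all of them and calls at an adjusted p under 0.05. There were 5 comparisons, the last being the interaction of genotype and RA. The fit was tested on simulated data with known changes. Depth was estimated by matching low RPKM values, at or under 0.15, between libraries with a tolerance of 1.5%.

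Members called between genotypes or in the interaction, the 12 largest called RA differences in each genotype and the 6 highest members were described in full, and other members and list genes were named as examples. The members, the gene lists and the marker lists were chosen with earlier results of these data known. Alternatives were pseudocounts of 0.1 and 0.5, no filter or one of 5 RPKM, median-of-ratios or quantile scaling, chromosome-median centring, no trend, robust moderation, a fit of just the 4 libraries of a comparison, a replicate block, and each library left out in turn. Promoter windows came from RefSeq, GRCm38.p6, and coordinates of the files from mm9.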

Additional observations from a re-analysis of the deposited data

Results flagged for a closer look

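For 5 members the RA response differed between the genotypes by the test of that difference itself (limma on log2(RPKM + 1), GLP 3A response minus wild-type response). The differences were -2.26 for Nrp2, -0.91 for Sema4c, -0.91 for Sema5a, -0.80 for Ephb4 and 0.95 for Sema5b. Each call ended without either RA-treated wild-type replicate or any 1 untreated library. Epha10, an Eph receptor gene whose kinase domain is inactive, was too low to be tested. It had 0.117 and 0.126 RPKM in RA-treated GLP 3A cells and 0.108 and 0.0895 in untreated GLP 3A cells, against 0.0877 and 0.108 in RA-treated wild-type cells and 0.137 and 0.145 in untreated wild-type cells. Its RA-treated values were thus above the untreated ones in GLP 3A and below them in wild type, with a difference of 0.0662 RPKM between the mean RA differences; this difference was not tested, and the gene shares its locus with 1700125G02Rik.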

How the results depend on the processing

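RA differences of the members depended little on the settings tried: the number called with RA kept within 1.5 times of 36 in GLP 3A and of 40 in wild type, at 34 to 39 and 36 to 41 with 1 library left out, and 31 of the 36 and 34 of the 40 calls held in every setting in which the gene was tested (28 and 26 of them were tested in all 19 settings). Genotype calls depended on them more. In untreated cells 7 members were called, 4 with a filter of 5 RPKM, 14 with only the 4 untreated libraries, and 2 to 11 with 1 library left out; Sema5b held in every setting, and Sema5a in all but the filter of 5 RPKM, under which it was not tested. In RA-treated cells 10 were called, 6 at a pseudocount of 0.1 or 0.5, 5 without a filter or with one of 5 RPKM, 0 with only the 4 RA-treated libraries (limma; 12 at an unadjusted p under 0.05, as were 17% of all genes), and 2 to 15 with 1 library left out, so 0 calls held in every setting. For the difference of RA responses 5 were called, 3 without a filter, 2 with a filter of 5 RPKM, 2 under quantile normalization, 3 under chromosome-median centring, and 0 to 14 with 1 library left out. The cause of these shifts was not tested. With a replicate block, 9, 9, 40, 41 and 3 members were called for untreated genotype, RA-treated genotype, RA in GLP 3A, RA in wild type and the difference of responses, and Sema3e (0.0529) and Sema5b (0.0528) lost their call between RA-treated genotypes and Sema4c (0.058) and Sema5a (0.0511) theirs in the difference of responses; the labels do not say that the numbers pair libraries, there are only 2 of them, and same-numbered libraries deviated together with correlations of 0.169 to 0.355 over 13198 genes. Values that changed sign were uncalled. The untreated genotype difference of Plxna2 ran between -0.026 and 0.095 with 1 library left out (lowest without untreated wild-type replicate 2). The RA-treated genotype difference of Epha2 ran between -0.39 and 0.038 (highest without RA-treated GLP 3A replicate 2). The difference of responses of Sema3e ran between -0.026 and 0.22 (lowest without RA-treated GLP 3A replicate 1) and was -0.090 at a pseudocount of 0.1, where that of Sema3f was 0.021. With 2 libraries a group and no counts, differences near 0 RPKM are poorly resolved.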
